A study of Dugesia japonica with 157 samples.

Results

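The midline of a planarian was compared with the tissue beside it in serial sections cut from right to left through Dugesia japonica, a freshwater flatworm known for regrowing a whole body from small pieces. Of the 51 sections of the right-left series, sections 24 to 28 were taken as the midline and sections 18 to 22 (right) and 30 to 34 (left) together as the paramedian tissue. Sections whose total was under 20% of the series median of 1102511 estimated counts were dropped. This left 3 midline sections, numbered 24, 26 and 27, and all 10 paramedian sections, so that 13 of the 15 sections of the comparison were used, out of 157 sections in the whole series. All sections are labelled as whole animal, strain AF. No treatment that differs between them, no age and no replicate animals are labelled, so neighbouring sections stand in for replicates and no p-value here covers variation from animal to animal. The numbers of the libraries follow section order, and a drift with library order cannot be told apart from position. Of 25566 rows in the count table, each taken here as 1 transcript, 15199 were tested, those that reached 5 counts in 3 or more of the 13 sections. The table gives identifiers without gene names, so the roles of single transcripts are not given here and no marker of midline, pharynx, gut, nerve or muscle could be looked up.

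A planarian is bilaterally symmetric. Its midline holds the pharynx, a muscular feeding tube in the trunk, and the unpaired anterior branch of the gut, while the paired posterior gut branches and the paired ventral nerve cords run to either side. Midline position is set in planarians by signals such as Slit, which is made along the midline and guides growing axons. A transcript of a midline organ could thus be higher at the midline than on both sides, and a transcript of a paired organ higher on both sides.

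Depth was uneven at the midline itself. Sections 24, 26 and 27 held 11230638, 347444 and 1102511 estimated counts, against 1141316 to 7381130 in the paramedian sections. The dropped sections 25 and 28 held 19222 and 163756. Section 24 was thus the deepest and section 26 the shallowest of the 13. The midline sections had 16635, 6324 and 10344 transcripts with at least 1 count, against 10430 to 16463 in the paramedian sections. The mean number of detected transcripts was 11101 ± 5197 at the midline and 13523 ± 2256 beside it (SD, n = 3 and 10, two-sided exact permutation test, p = 0.28), and the mean log2 total differed by -0.89 (p = 0.364 by the same exact permutation test). With the 2 dropped sections put back, the midline minus the paramedian mean was -5685 detected transcripts (exact permutation p = 0.0273), and the same difference in mean log2 total was -2.83 (exact permutation p = 0.0353). Among the tested transcripts, section 26 had no count for 59.6% and section 27 for 34.2%, while section 24 lacked 2.42% and the median paramedian section 15.2%. The most abundant transcript, DjGI002446_001, took 5.55%, 36.1% and 18.6% of all counts in sections 24, 26 and 27 and 4.95% to 20.9% in the paramedian sections, with the larger shares in shallower sections. Whether depth had a part in the results below was not tested beyond the alternatives given with them.

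**Figure D1:**
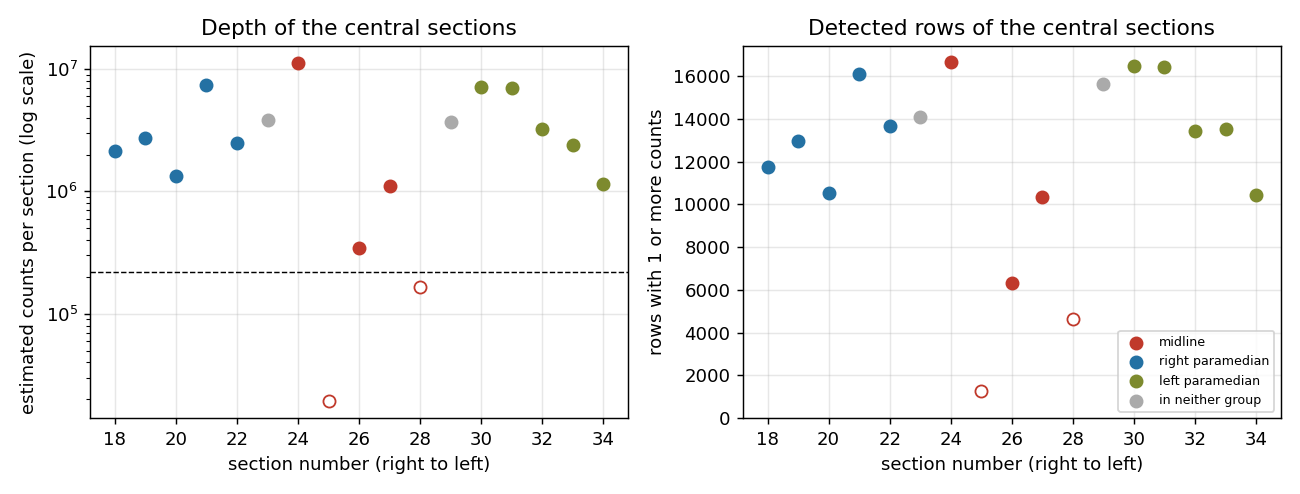
The left panel shows the estimated counts of sections 18 to 34 on a log scale and the right panel their number of transcripts with at least 1 count, both by section number from right to left. Filled circles are kept sections and open circles the dropped midline sections 25 and 28, the dashed line marks 20% of the series median, and section 24 at 11230638 counts stands next to a run of midline sections that includes the lowest of the panel.

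Midline sections were compared with each other across transcripts. The Pearson correlation of their log2 levels, centred per transcript over the 13 sections, was -0.32 between sections 24 and 26, -0.23 between 24 and 27 and -0.02 between 26 and 27. Section 24 correlated instead with the deep paramedian sections 21, 30 and 31, at 0.35, 0.28 and 0.27. With all sections thinned to 1 depth, those 3 values were -0.03 each and the 3 midline pairs were at -0.15, -0.17 and 0.03. Low values were not particular to the midline. Pairs of right sections ran from -0.24 to 0.15 and pairs of left sections from -0.24 to 0.53, and after thinning all 10 pairs of either side were below 0. These are correlations across transcripts, which are not independent replicates, and they are given as a description. Centring each transcript over the 13 sections itself pulls the correlations between sections below 0 on average. A value below 0 thus does not by itself show that sections were unlike each other, at the midline or beside it.

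Against both sides together, the midline stood out in a single transcript. DjGI002462_001 was at 3.48, 1000.1 and 29.1 CPM (counts scaled to a common depth, as in edgeR, with TMM factors) in sections 24, 26 and 27, against 2.45 to 26.8 CPM in the paramedian sections, whose median was 10.7 CPM. Section 26 was far above all others, section 27 just above the highest paramedian section and section 24 within the paramedian range, so the groups overlapped. The midline was higher by 4.84 ± 0.77 on the log2 scale (SE, edgeR quasi-likelihood test with Benjamini-Hochberg adjustment over all 15199 transcripts, adjusted p = 0.044). That is 1 of 15199 transcripts, or 0.00658% of those tested, and section 26 carried 96.8% of the midline sum. Without section 26 it stood at 0.35 on that scale, and 19 of 28 alternatives ended the call. DESeq2 gave it no adjusted p. In the dropped section 28 the transcript had 19 counts, or 116 CPM unscaled, and in the dropped section 25 it had 0. Farther out it averaged 22.8 CPM in the 8 kept outer right sections (of 1 to 17) and 24.2 CPM in the 14 kept outer left sections (of 35 to 51), on the scale of the whole right-left series, and its highest section there reached 67.9 CPM.

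No transcript was called lower at the midline (0% of those tested). At an unadjusted p under 0.05, edgeR gave 412 higher and 258 lower, DESeq2 called DjGI000180_002 higher and DjGI004959_001 lower, and limma-trend called 0 in each with 240 higher and 1503 lower at an unadjusted p under 0.05. Over all tested transcripts the median log2 fold change was -0.25, so single values are best read against that shift. Without section 24, the deepest midline section, edgeR called 33 higher and 45 lower, and the median moved to -0.72. The precision of 13 sections depended on level. The standard error of the log2 fold changes had a median of 1.59 for transcripts with a mean under 1 CPM, 1.14 between 1 and 10 CPM, 0.54 between 10 and 100 CPM, 0.32 between 100 and 1000 CPM and 0.30 above that. A log2 difference of 1 between 10 and 100 CPM was thus under 2 such errors, and a missing call does not show equal levels.

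The transcripts next in order of p, limited to those averaging 10 CPM or more in the group where they were higher, show what the comparison was made of. This choice was made after their values were seen, and none of them passed the adjusted threshold except DjGI002462_001, which leads the higher ones. Among the 10 with the lowest p and a higher midline mean, section 26 was the highest of the midline sections in 9 and carried 59.2% to 99.0% of the midline sum in those. In only 3 of the 10 were all 3 midline sections above the paramedian median. The shares of such counts over all tested transcripts were not counted. Their log2 fold changes ran from 1.39 to 7.02, and the 9 others had adjusted p-values of 0.244 to 0.462 (edgeR, Benjamini-Hochberg). DjGI010108_001 is an example, with 1.31, 100.4 and 0 CPM in sections 24, 26 and 27 and no count in 8 of the 10 paramedian sections.

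The exception was DjGI003964_001, the only one of the 10 not led by section 26. It was at 728, 564 and 1344 CPM in sections 24, 26 and 27. Right paramedian sections 18 to 22 had 362, 507, 218, 169 and 590 CPM, and left paramedian sections 30 to 34 had 216, 261, 320, 361 and 343 CPM. Sections 24 and 27 were above every paramedian section, and section 26 was below section 22 alone. Its midline mean was 879 ± 411 CPM (SD, n = 3), against 335 ± 132 CPM (SD, n = 10) in the paramedian sections. The log2 fold change was 1.39 ± 0.32 (SE, edgeR, Benjamini-Hochberg adjusted p = 0.462), and it ran from 0.95 to 1.61 over 29 alternatives without a call. Of the midline sections left out of the comparison, section 28 held 123 counts of it. Section 25, with 19222 estimated counts in all, held none. On the scale of the whole series it was at 1299 CPM in section 23, which lies between the right paramedian sections and the midline, and at 348 CPM in section 29 on the other side. Its highest 5-section running mean lay at section 24. High values were not confined to the middle. On the same scale it averaged 419 CPM in the outer right and 308 CPM in the outer left sections, and the highest outer section had 1378 CPM. Along the body it averaged 43.2, 126 and 12.0 CPM in the anterior, middle and posterior parts of the anterior-posterior series, and from dorsal to ventral it peaked at section 8.

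Among the 10 transcripts with the lowest p and a lower midline mean, all 3 midline sections were below the paramedian median in every one, and section 26 was the lowest or tied for the lowest of the midline sections in all 10. Section 26 had no count in 7 and section 27 none in 3, beside 59.6% and 34.2% of all tested transcripts. The 10 were chosen for a lower midline mean, so the other counts partly restate that choice. Their shares over all tested transcripts were not counted. Their log2 fold changes ran from -6.57 to -0.98, with adjusted p-values from 0.269 to 0.929 (edgeR, Benjamini-Hochberg). DjGI004959_001 came first. It had 1 count in the 3 midline sections together, in section 24 (0.09 CPM), against 13.0, 7.06, 7.60, 4.75 and 7.22 CPM in sections 18 to 22 and 4.20, 6.46, 16.5, 2.50 and 32.1 CPM in sections 30 to 34. All paramedian sections were thus above all midline sections. The ratio of the pooled paramedian to the pooled midline level was 94.4, with an exact Poisson interval from 16.9 to 3728 (95%) that covers counting error alone, and the adjusted p was 0.269 (edgeR, Benjamini-Hochberg). DjGI004959_001 was called with DESeq2 (adjusted p = 0.00484) and with all 15 sections (edgeR, adjusted p = 0.0459), and in none of the 27 other alternatives. The dropped sections 25 and 28 had no count of it, but at 19222 and 163756 estimated counts they were too shallow for this to say much. Sections 23 and 29 had 6.96 and 2.65 CPM on the scale of the whole series. DjGI013200_001 was lower at a higher level, with 73.5, 51.9 and 70.2 CPM in sections 24, 26 and 27 and 91.7 to 180 CPM in the paramedian sections (log2 fold change -0.98 ± 0.30 SE, edgeR, Benjamini-Hochberg adjusted p = 0.74).

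A complete separation of the groups was rare in either direction. All midline sections were above all paramedian sections in 17 transcripts (0.112% of those tested) and below them in 42 (0.276%). With only 3 midline sections, a random order of the sections would also separate some transcripts. How many it would separate was not tested. Neither count can thus be read as more separation than a random order would give, and the transcripts below are examples only. The 3 most abundant of those above were DjGI009885_001, DjGI013101_001 and DjGI000676_003. DjGI000676_003 was the most even, at 38.0, 41.5 and 41.1 CPM in the midline sections, against 11.6 to 37.8 CPM beside it. DjGI013101_001 had 20.8, 96.9 and 46.1 CPM at the midline, against 8.45 to 20.5 CPM. Among those below, DjGI010555_001, the most abundant, had 414, 246 and 331 CPM in sections 24, 26 and 27, against 426 to 678 CPM in the paramedian sections. DjGI000250_002 had 283, 266 and 279 CPM, against 306 to 446 CPM. None of these was called, and their adjusted p-values ran from 0.462 to 0.986 (edgeR, Benjamini-Hochberg).

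**Figure D2:**
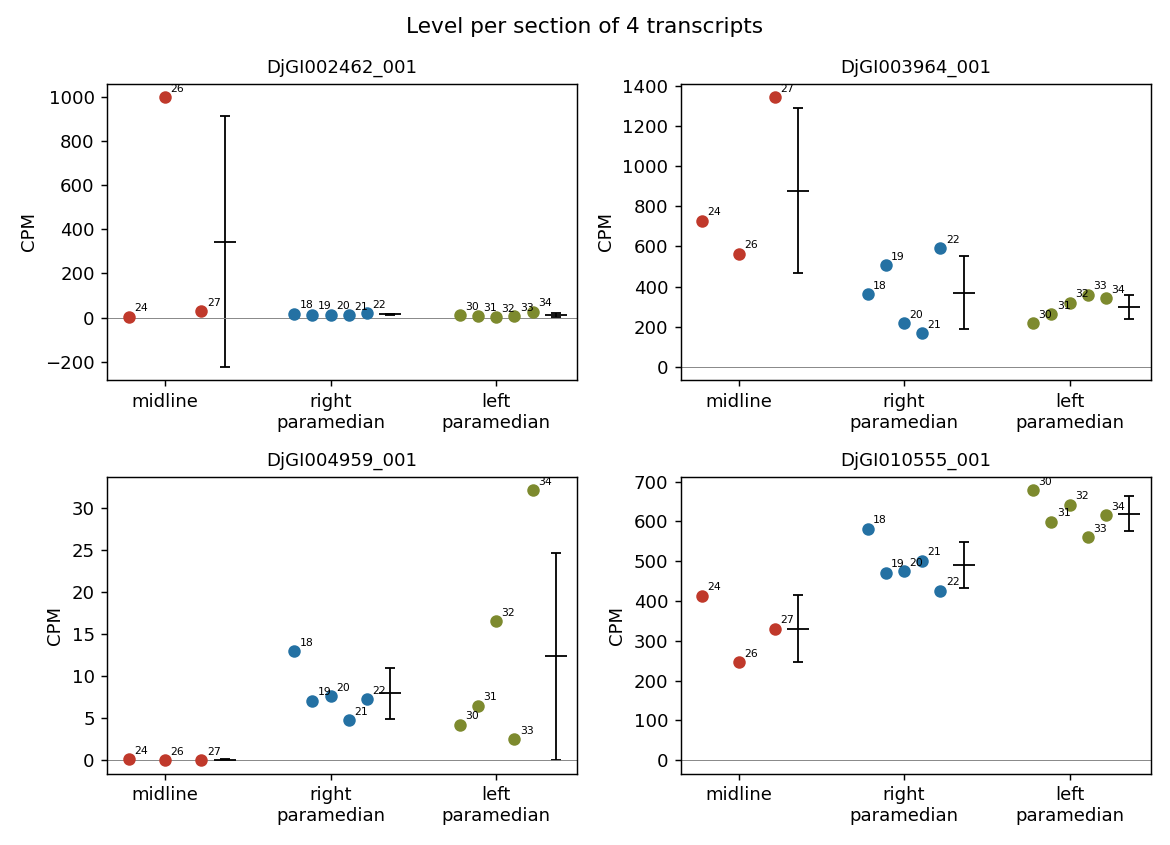
Each panel gives the CPM of 1 transcript in the 3 midline, 5 right paramedian and 5 left paramedian sections, with section numbers beside the points and the mean and SD of each group beside it. DjGI002462_001 is high in section 26 alone, DjGI003964_001 has all midline sections near or above the highest paramedian value, DjGI004959_001 is near 0 at the midline and DjGI010555_001 is below all paramedian sections there.

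The sides were then separated, in 1 fit with midline, right and left as 3 levels. The midline differed from the left sections in 18 transcripts, all higher (0.118% of those tested), and from the right sections in 0 (0% of those tested, either direction). None was lower than on the left (0% of those tested), and at an unadjusted p under 0.05 edgeR gave 294 lower. Against the right, edgeR gave 350 higher and 220 lower at an unadjusted p under 0.05, and DESeq2 called 1 in each direction. The lowest adjusted p against the right was 0.912 (edgeR, Benjamini-Hochberg). The count above the left was 12 to 23 with any section but 24 left out, and without section 24 it was 49, with 36 lower. With section number as a covariate, which follows the same direction as the groups, it was 2. With all sections thinned to 1 depth it was 13, and 9 of the 18 were among them. One of the 18 was DjGI002462_001. The other 17 had another pattern, which the comparison with both sides together did not show: they were high in the right paramedian and midline sections and low on the left. They are described as a list chosen after their values were seen.

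DjGI018216_001 shows the pattern most evenly. It was at 174, 170 and 195 CPM in midline sections 24, 26 and 27. The right paramedian sections 18 to 22 had 170, 168, 181, 123 and 192 CPM, and the left paramedian sections 30 to 34 had 6.88, 0.13, 0.61, 0.36 and 8.03 CPM. The midline sections lay among or just above the right ones, and both were above every left section. The midline exceeded the left by 5.95 ± 0.72 on the log2 scale (SE, edgeR, Benjamini-Hochberg adjusted p = 0.00015), and its difference from the right was 0.11 ± 0.62 (adjusted p = 0.999, edgeR). The difference between these effects, which is the right sections against the left, was 5.84 ± 0.69 (edgeR, Benjamini-Hochberg adjusted p = 8.22e-05). Both comparisons share the left sections.

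DjGI017473_001 was the most abundant of the 17. Its level was 1308, 429 and 875 CPM at the midline, with section 26 lowest. It was 1592, 1149, 923, 759 and 1431 CPM in right sections 18 to 22, and 31.0, 6.46, 15.0, 17.8 and 17.0 CPM in left sections 30 to 34. Every midline section was above every left section, by 5.64 ± 0.44 on the log2 scale (SE, edgeR, Benjamini-Hochberg adjusted p = 2.04e-07). DjGI003981_001 had the lowest p of the 17. It was at 316, 187 and 192 CPM at the midline, 374, 185, 263, 199 and 338 CPM on the right and 8.79, 3.10, 4.60, 3.57 and 5.35 CPM on the left, with a log2 fold change of 5.50 ± 0.40 over the left (SE, edgeR, Benjamini-Hochberg adjusted p = 1e-07). These were the only 2 of the 18 whose call against the left held in all 26 alternatives.

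DjGI017391_001 had 168, 228 and 172 CPM at the midline, 321, 298, 213, 177 and 165 CPM on the right and 0.92 to 12.5 CPM on the left. DjGI016985_001 had 244, 93.4 and 261 CPM at the midline, 172, 194, 118, 294 and 256 CPM on the right and 0.90 to 24.5 CPM on the left. In both, the midline and right sections were mixed in order and all of them were above all left sections. DjGI018271_001 followed at a lower level, with 51.1, 17.3 and 80.2 CPM at the midline, 34.2 to 88.4 CPM on the right and 0 to 4.64 CPM on the left. DjGI009825_001 had 78.3, 48.4 and 80.2 CPM at the midline, 76.0 to 134 CPM on the right and 1.78 to 15.7 CPM on the left.

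Some of the 17 were nearly empty on the left. DjGI017184_001 had 155, 31.1 and 34.1 CPM at the midline, 66.3 to 166 CPM on the right, and on the left was found in section 30 alone, at 1.40 CPM. DjGI014172_001 had 11.7, 17.3 and 9.02 CPM at the midline, 13.0 to 26.0 CPM on the right and just 8 counts in all left sections. DjGI008213_001 had 10.8, 0 and 3.01 CPM at the midline and 0 counts in all left sections. Against a floor of 3 counts over the left group, its pooled midline level was at least 75.5-fold higher. That bound rests mainly on the deep section 24, and the call against the left ended in 14 of 25 alternatives. DjGI008402_001 had 15.8 CPM in section 24 and none in sections 26 and 27, and 1 count on the left, so that its pooled ratio of 324 (95% exact Poisson interval 58.2 to 12817, counting error alone) rests on section 24. DjGI011378_001 was likewise uneven at the midline, with 38.1, 0 and 10.0 CPM, against 13.4 to 44.8 CPM on the right and 0 to 0.89 CPM on the left. In these last 3, the shallow section 26 did not detect the transcript.

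Others kept a clear level on the left. DjGI018898_001 had 339, 346 and 537 CPM at the midline, 356 to 835 CPM on the right and 31.0 to 102 CPM on the left. DjGI017624_001 had 306, 322 and 359 CPM at the midline, 179 to 516 CPM on the right and 33.5 to 101 CPM on the left. DjGI014910_001 had the smallest excess over the left, 1.72 ± 0.33 on the log2 scale (SE, edgeR, Benjamini-Hochberg adjusted p = 0.0437), with 66.9, 58.8 and 62.1 CPM at the midline, 73.4 to 124 CPM on the right and 14.7 to 22.1 CPM on the left. DjGI000410_001 and DjGI000410_002 share the first part of their identifier, and reads may have been split between them, so they are not independent. Section 24 was the highest of all 13 sections for both, at 821 and 780 CPM, while section 26 had 114 and 125 CPM and the left sections 42.8 to 88.7 and 47.4 to 85.7 CPM.

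Over the 17, the log2 fold change of the midline against the left ran from 1.72 to 7.45, with a median of 4.84, beside a median of -0.26 over all tested transcripts. Against the right it ran from -0.71 to 0.17, with a median of -0.42, beside -0.18 over all. Right against left it was 2.22 to 8.01, and all 17 were among the 24 transcripts (0.158% of those tested) called higher on the right than on the left, with adjusted p-values up to 0.0123 (edgeR, Benjamini-Hochberg). The other 7 of those 24 had a median log2 fold change of 2.04 at the midline against the left and were not called there. All midline sections were above all left sections in 14 of the 17, and all right sections were above them in 17 of 17. The 17 were chosen in the same fit against these left sections, so such counts and the calls of right against left largely restate the choice. The share over all tested transcripts was not counted. Section 26 was the lowest or tied for the lowest midline section in 13 of the 17, and it had no count for 59.6% of all tested transcripts. With both sides pooled, the same transcripts were at 0.22 to 1.09 on the log2 scale, and their lowest adjusted p was 0.986 (edgeR, Benjamini-Hochberg).

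**Figure D3:**
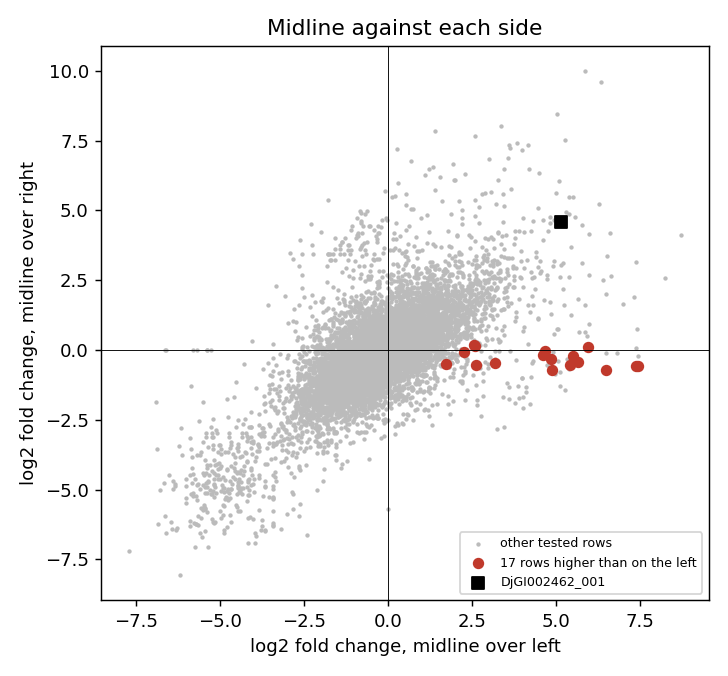
Each point is 1 of the 15199 tested transcripts, with its log2 fold change of the midline over the left paramedian sections on the x axis and over the right paramedian sections on the y axis. The 17 transcripts in red lie at 1.72 to 7.45 on the x axis and at -0.71 to 0.17 on the y axis, while DjGI002462_001, the black square, is high on both.

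The stretch of sections that held the pattern was followed along the series. The summed level of the 17 transcripts was 4884, 2187 and 3613 CPM in midline sections 24, 26 and 27, 4852, 4132, 3686, 3409 and 4862 CPM in right sections 18 to 22 and 396, 320, 393, 263 and 379 CPM in left sections 30 to 34. On the scale of the whole right-left series, sections in neither group extend this. Section 16 had 818 CPM, the highest of the outer right sections, and section 18 had 5255 CPM, with section 17 dropped for depth. Section 23, between the right sections and the midline, had 5839 CPM. Section 29, between the midline and the left sections, had 1117 CPM, and no outer left section exceeded 428 CPM. The dropped midline sections had few counts. The 17 transcripts made up 0.227% of all counts in section 28 (371 counts, 14 of the 17 detected) and 0.125% in section 25 (24 counts, 3 of the 17 detected), where 22 of the 24 counts were DjGI017473_001. The kept midline sections had 0.5%, 0.182% and 0.327%, and the left sections 0.0308% to 0.0437%. Among the kept sections the high stretch thus ran from section 18 to section 27, and the level in section 29 lay between it and the left. Section 26, the middle of the 51 sections by number, lay near the left end of that stretch, and the 5-section running means of the 17 peaked at sections 20 to 24. Where the animal's own midline lay among the section numbers is not labelled.

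**Figure D4:**
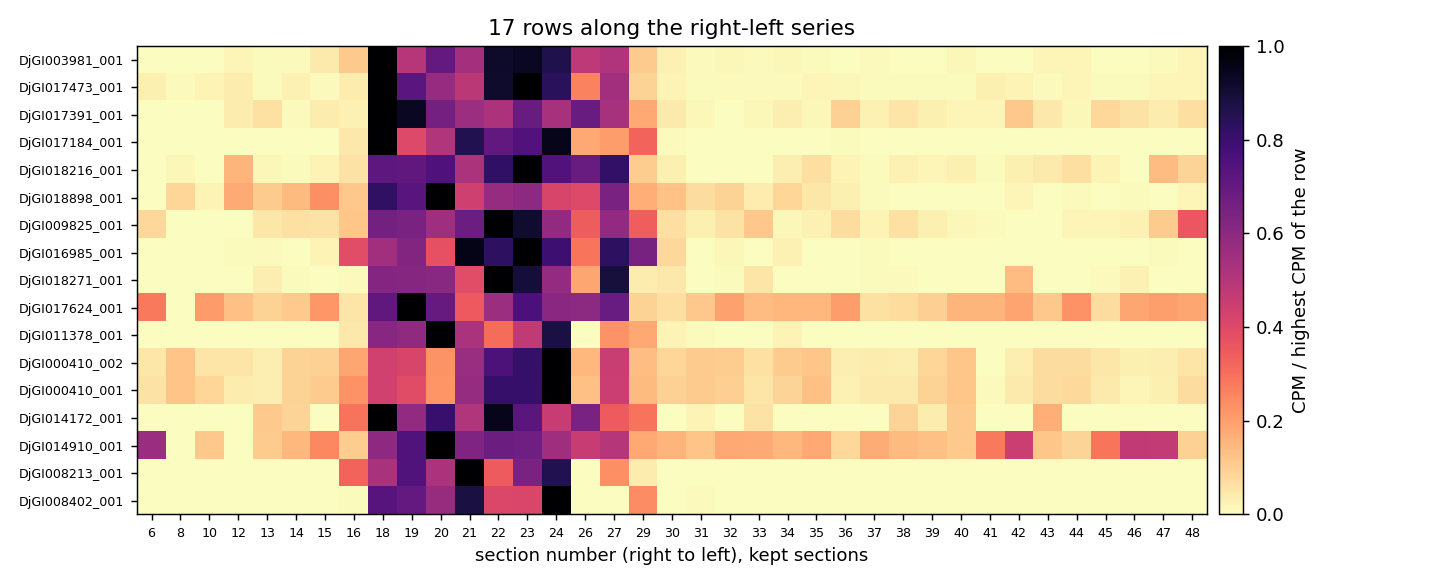
Rows are the 17 transcripts and columns the kept sections of the right-left series in order from right to left, and colour gives the CPM as a fraction of the row's highest section. The dark block covers sections 18 to 27, section 29 is intermediate and the sections from 30 on are pale in nearly all rows.

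The 17 transcripts were then placed on the other axes, which the right-left sections had no part in choosing. The anterior-posterior sections were cut into 3 equal parts by number, of which sections 1 to 7 have no data here. Of the 16 with a mean of at least 1 CPM on that axis, 16 had their highest mean in the middle part, beside 31.6% of the tested transcripts measured there. The remaining one, DjGI008213_001, averaged 0.99, 0.92 and 0 CPM in the anterior, middle and posterior parts. The running means of all 17 peaked between sections 34 and 43. DjGI017473_001 averaged 23.2, 735 and 25.6 CPM in the anterior, middle and posterior parts, and DjGI018216_001 averaged 7.99, 122 and 14.1 CPM. The summed level was 847 CPM in section 32, 1603 CPM in section 33 and 6151 CPM in section 34. It stayed between 3045 and 6558 CPM from there to section 44 except for section 40, with 383 CPM, and was 1168 CPM in section 45 and 271 CPM in section 46. From dorsal to ventral, 13 of the 17 had their highest mean in the dorsal part and 4 in the middle part, beside 26.7% and 40.9% of the tested transcripts, and none in the ventral part. The summed level there was 569 and 1356 CPM in the most dorsal kept sections, 4 and 5, highest in section 8, at 2682 CPM, and 697 and 246 CPM in the most ventral kept sections, 25 and 26. DjGI003981_001, for example, averaged 150, 116 and 44.7 CPM in the dorsal, middle and ventral parts. Levels are not compared between the series, and these places are given as a description of a chosen list.

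**Figure D5:**
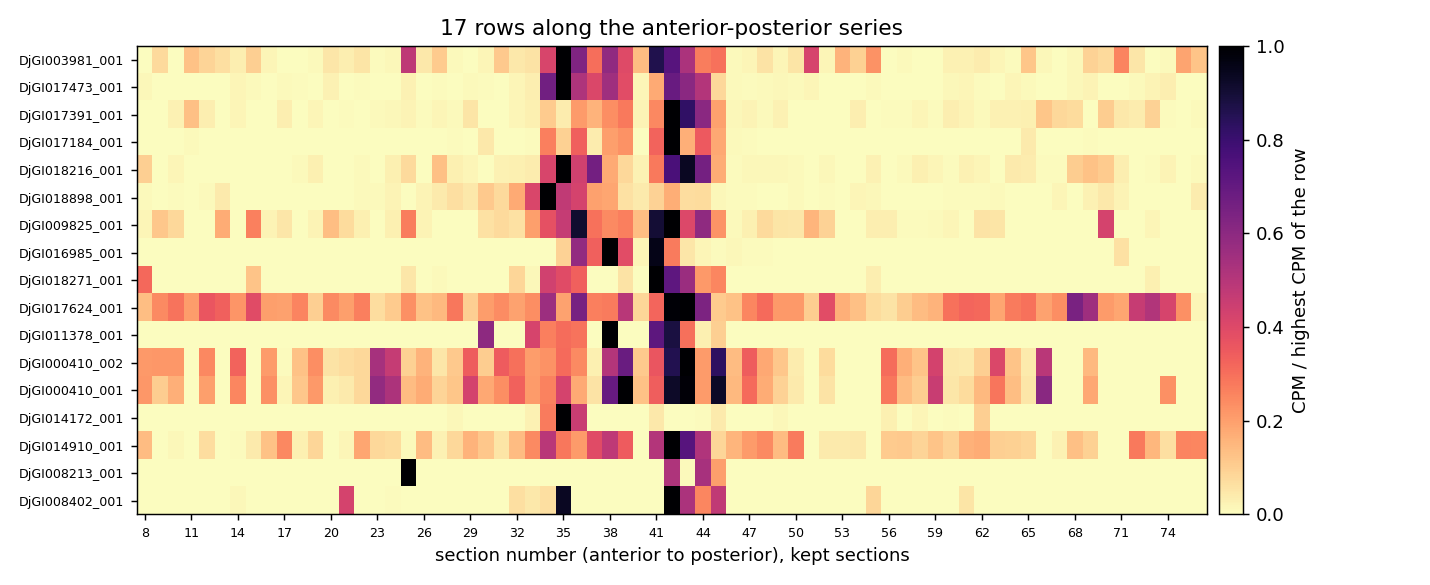
Rows are the same 17 transcripts and columns the kept sections of the anterior-posterior series in order from anterior to posterior, with colour as the fraction of the row's highest CPM. Most rows are darkest within sections 34 to 44, where the summed level reached 6558 CPM, and section 40 is a pale column inside that stretch.

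A broader question is whether the midline exceeded its neighbours in transcripts of the central body as a whole. When the 15 kept sections from 18 to 34 were set against the outer kept sections, 128 transcripts were higher in the middle of the body (0.778% of 16463 tested) and 35 lower. Of the 126 that could be tested here, 64 had a positive log2 fold change at the midline over the paramedian tissue. Their median was 0.02, beside -0.25 over all tested transcripts, of which 36.7% were positive, and none was called. Set against each side, the median was -0.39 over the right and 0.44 over the left. The 15 sections include all 13 of the midline comparison, and 16 of the 17 transcripts described above were among the 128. Within the central body these transcripts thus gave no called difference in level between the midline and both sides together, at the precision given above.

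None of the most abundant transcripts was called. DjGI002446_001 was at 231453 ± 191224 CPM in the midline sections (SD, n = 3) and 115234 ± 72306 CPM in the paramedian sections (SD, n = 10), with a log2 fold change of 1.01 ± 0.49 (SE, edgeR, Benjamini-Hochberg adjusted p = 0.986). DjGI017786_001, next in level, was at 27560, 27902 and 33953 CPM in sections 24, 26 and 27, against 20808 to 42691 CPM beside them, and its log2 fold change was 0.00 ± 0.23 (SE). All midline values of DjGI017786_001 lay inside the paramedian range. DjGI000022_002 varied more, at 28320, 8077 and 6789 CPM in sections 24, 26 and 27, against 4927 to 28825 CPM in the paramedian sections, and was highest in the deep sections 21, 24, 30 and 31.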

How the data were processed

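Polyadenylated RNA of single tissue sections was turned into libraries with Lasy-Seq version 1.1 after the Direct-TRI procedure, per the labels. For each body axis the authors deposited a table of estimated counts without scaling to depth. The submitters' processing notes name Salmon, BWA 0.7.17-r1188, fastp 0.21.0 and bcl2fastq 2.20.0. Their roles and the reference were not given in the sources used here. For the right-left axis 468 of 1303866 values were not whole and were rounded. By name, 150 of 157 columns matched 1 section, and 7 columns of the anterior-posterior axis were not used.

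Estimated counts of the 13 kept sections were tested with edgeR 4.0.16 (R 4.3.3), its quasi-likelihood F-test and TMM factors, with p-values adjusted by Benjamini-Hochberg over the 15199 transcripts, called at an adjusted p under 0.05. Standard errors come from the F statistic. A fit with 3 levels gave each side apart, and its counts over all transcripts extend a test planned for named transcripts only. Totals and detected transcripts were compared with exact permutation tests over sections (SciPy 1.17.1). The profile over all right-left sections was scaled apart, so its CPM differ slightly from those of the fit. A peak is where log2(CPM + 1), averaged over 5 neighbouring sections, was highest. Alternatives used DESeq2 1.42.0 and limma 3.58.1, other scalings, filters, covariates, thinned counts and each section left out. The fit was tested on simulated data. The plan held 5 midline sections, and the depth rule left 3.

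Named transcripts were all those called, plus the 10 per direction with the lowest p that averaged 10 CPM or more where they were higher, all 18 called against the left, the most abundant ones and 3 per direction among those that separate the groups. All but the called ones were added after the values were seen. The comparison, its members and lists were chosen with earlier results of these data known. Marker lists could not be matched to the identifiers. Counting intervals and floors cover counting error only.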

Additional observations from a re-analysis of the deposited data

Results flagged for a closer look

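For 17 transcripts the effect of the midline differed between the left and the right side, by the test of right against left sections (edgeR, all 17 called). That test uses no midline section. The 17 were chosen in the same fit against the same left sections, so their calls here are not separate support. The midline effect over the left exceeded that over the right by 5.72 on the log2 scale for DjGI003981_001, 6.06 for DjGI017473_001, 5.15 for DjGI017391_001, 7.96 for DjGI017184_001 and 5.84 for DjGI018216_001. It did so by 3.14 for DjGI018898_001, 3.63 for DjGI009825_001, 4.71 for DjGI016985_001, 4.78 for DjGI018271_001, 2.32 for DjGI017624_001 and 5.94 for DjGI011378_001. For DjGI000410_002, DjGI000410_001, DjGI014172_001, DjGI014910_001, DjGI008213_001 and DjGI008402_001 the differences were 2.39, 2.46, 5.58, 2.22, 8.01 and 7.20.

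Of the sections in neither group, section 23 carried the signal of the 17 and section 29 was intermediate. On the scale of the whole right-left series, their summed level was 5839 CPM in section 23 and 1117 CPM in section 29. The level in section 29 was above the highest left section, at 439 CPM, and below the lowest kept midline section, at 2285 CPM. The highest outer right section, at 818 CPM, was also above every left section. In midline section 28, dropped for depth, DjGI002462_001, which is not among the 17, was at 116 CPM unscaled, above the paramedian sections.

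A single section stood apart from its group in 7 of 55 groups of values examined. The nominal rate of about 1 in 20 cannot be set against this. The transcripts were chosen for their values, and several flagged groups were 0 in most sections, where a non-zero value is flagged easily. In the paramedian group these were section 31 for DjGI010108_001 (1.55 CPM) and DjGI013707_001 (1.03 CPM), section 30 for DjGI013181_001 (1.78 CPM) and section 34 for DjGI004959_001 (32.1 CPM). On the left they were section 30 for DjGI017184_001 (1.40 CPM) and section 31 for DjGI008402_001 (0.13 CPM), and on the right section 22 for DjGI009825_001 (134 CPM). The value of DjGI008402_001 is 1 count.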

How the results depend on the processing

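The single transcript called higher at the midline was 0 with limma-trend, a robust spread, 10 counts in 5 sections, sections under 50% of the median dropped, the section total as a covariate, the right side only, or the most abundant transcript left out (added after seeing the data). The count was 7 with all 15 sections, 4 with section number as a covariate, 6 against the mean of the 2 sides and 12 against the left only. With 1 section left out, the count was 0 without any 1 of the 10 paramedian sections and 0 without section 26. It was 1 without section 27 and 33 without section 24. With DESeq2 it was 1, but the call was DjGI000180_002, and DjGI002462_001 got no adjusted p. Calls lower were 1 with DESeq2, all 15 sections or thinned counts, and 0 to 45 with 1 section left out. The highest counts with 1 section left out came without section 24, the deepest midline section, where the median log2 fold change over all transcripts was -0.72, beside -0.25 with all 13 sections.

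Against the left, the 18 higher became 61 with DESeq2, 10 with limma-trend, 2 with section number as a covariate, 30 with rows summed by the first part of the identifier and 12 to 49 with 1 section left out. The lower ones became 3 with DESeq2, 1 with all 15 sections, the total as a covariate or thinned counts, and 0 to 36 with 1 section left out. Against the right, higher calls were 1 with DESeq2 or summed rows and 0 to 1 with 1 section left out, and lower calls 1 with DESeq2 and 0 to 2. Of the 17, 12 to 17 were still called with any 1 section left out. Fewer were kept with limma-trend (10), thinned counts (8, of 13 called higher than the left) and section number as a covariate (2).

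The difference in log2 total was -2.83 with all 15 sections and -2.29 to 0.22 with 1 section left out, being positive without section 26. That in detected transcripts was -5685 with all 15 sections, -1246 with thinned counts (exact permutation p = 0.133) and -5189 to -33.7 with 1 section left out. DjGI007328_001 was at 0.32 with all 15 sections and DjGI008402_001 ran from -1.06 (without section 24) to 7.58 against the left with 1 section left out. For each of these changes the cause was not tested. No paired analysis was possible because the groups share no section numbers. Section 26 sets the depth limit: a transcript with no count there could still have an expected level of up to about 3 counts.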
